A study of Homo sapiens with 27 samples.

Results

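The SLC25 family is the set of carrier proteins that move metabolites, nucleotides, cofactors and ions across the inner membrane of mitochondria. The genes described here were all those whose symbol on the array begins with SLC25A, together with the uncoupling proteins UCP1, UCP2 and UCP3, 43 of the 15240 genes the array names. Where a gene had several probes, the probe with the highest mean log2 intensity was taken. SLC25A47 and SLC25A53 are on the array under older symbols, C14orf68 and MCART6, and so fall outside this choice. SLC25A15, SLC25A46, SLC25A48, SLC25A51 and SLC25A52 have no named probe here.

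Most carriers span the inner membrane as a bundle of helices that opens to one side and then to the other, exchanging one substrate for another. They are encoded in the nucleus and imported: receptors of the outer membrane hand them to small chaperones of the intermembrane space, and the TIM22 complex inserts them. In activated macrophages mitochondria are known to send citrate, succinate and itaconate into other uses than respiration, traffic that depends on such carriers.

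RNA came from U937, an established human line from a histiocytic lymphoma, grown as monocyte-like cells. Untreated cells were compared with cells given 4 µg/ml lipopolysaccharide (LPS, which comes from the outer membrane of bacteria and is sensed by Toll-like receptor 4) and with cells given 10 µM PBD150, an inhibitor of glutaminyl cyclase, for 2 h before the same dose of LPS. The culture time was 48 h in all groups. Macrophage is the labels' word for these cells, no agent that would differentiate them is named, and no group received PBD150 without LPS. Each group had 3 biological replicates with 3 one-colour arrays each, 27 arrays in all, so n = 3 throughout.

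Median spot intensity was 41.5 to 100.3 units on an array, and 69.0% to 77.8% of 30968 probes exceeded the noise limit, which is 3 times the root mean square of an array's values below 0. Untreated replicate 1 stood apart, with log2 array medians of 5.37 to 5.55 against 6.12 to 6.23 in the other untreated replicates, and quantile normalisation removed that difference. Of 10 monocyte and macrophage markers 9 were measured, and 8 of them exceeded noise on every array of each group. Their log2 summed level was 12.68 to 12.73 in untreated cells, 16.07 to 16.25 after LPS and 16.19 to 16.26 after PBD150 plus LPS, a sum that CD14 dominates (mean 8.95, 15.86 and 15.93). CD14, CSF1R, ITGAM and CD4 passed as higher with LPS, and CD33, SPI1, LYZ, FCGR1A and MPO did not pass. Markers of T or NK cells (6 of 6 measured) summed to 13.99 to 14.17, 14.96 to 15.28 and 14.94 to 14.98, a sum that NKG7 dominates (mean 13.85, 14.94 and 14.82). NKG7 (1.08, limma adjusted p = 0.00187) and CD2 (2.92, 0.000115) passed as higher with LPS, and CD3D, CD3E, CD3G and CD8A did not pass. No measured marker was under noise on all arrays of a group. B cell markers (3 of 4 measured) summed to 9.85 to 9.97, 8.74 to 9.32 and 8.57 to 9.01, but with LPS CD79A fell (-1.40, limma adjusted p = 0.003), MS4A1 rose (1.14, 0.0185) and PAX5 did not pass. Epithelial or fibroblast markers (4 of 6 measured) summed to 8.67 to 8.91, 9.13 to 9.78 and 9.55 to 9.80, and none of 2 erythroid markers was measured. The part of any marker signal in the carrier results was not tested. In bulk RNA, fewer cells of a type and less RNA per cell cannot be told apart.

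With LPS, 5 carriers rose and 8 fell among the 43. SLC25A20, SLC25A37, SLC25A12, SLC25A25 and UCP2 rose between 2.03-fold and 2.66-fold. SLC25A32 fell 16.4-fold, SLC25A33 4.92-fold, SLC25A38 2.67-fold and SLC25A40 2.05-fold, and SLC25A30, SLC25A5, SLC25A6 and SLC25A26 fell by smaller amounts. With PBD150 plus LPS, 5 rose and 10 fell against untreated cells, and between the LPS groups none passed the test. Against untreated cells 30.2% of the carriers passed with LPS and 34.9% with PBD150 plus LPS. Over all probes the shares were 22.5% and 26%, and 0% between the LPS groups.

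A carrier counts as risen or fallen where its limma adjusted p, taken over all 30968 probes, is under 0.05. For LPS against untreated that holds for 30.2% of the carriers and for 22.5% of all probes. The carriers include fewer dim probes: 38 of the 43 exceeded noise on every array of some group, against 20404 of the 30968 probes. With dim probes left out, 5 of these 38 carriers were higher and 12 lower, while 39.1% of the 20404 probes passed in either direction. Over all probes 10.6% were higher and 11.8% lower, the background for every later count of LPS against untreated. Carrier differences on the log2 scale ran from -4.03 to 1.41 with a median of -0.22, where the median over all probes was 0.08. The 30 carriers that did not pass lay between -1.52 and 0.73. With the values as deposited, before normalisation, the split was 6 higher and 1 lower for the carriers, and the median was 0.15 for them and 0.41 for all probes. Of the 8 that fell, SLC25A32 alone passed on that scale (-3.71), and the rest stayed below 0 without passing, among them SLC25A33 (-1.95), SLC25A38 (-1.10), SLC25A40 (-0.69), SLC25A30 (-0.60) and SLC25A26 (-0.36). Replicates of LPS and untreated did not overlap for 7 higher and 16 lower carriers, 53.5% of them against 43.4% of all probes (23.4% higher and 20% lower).

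**Figure D1:**
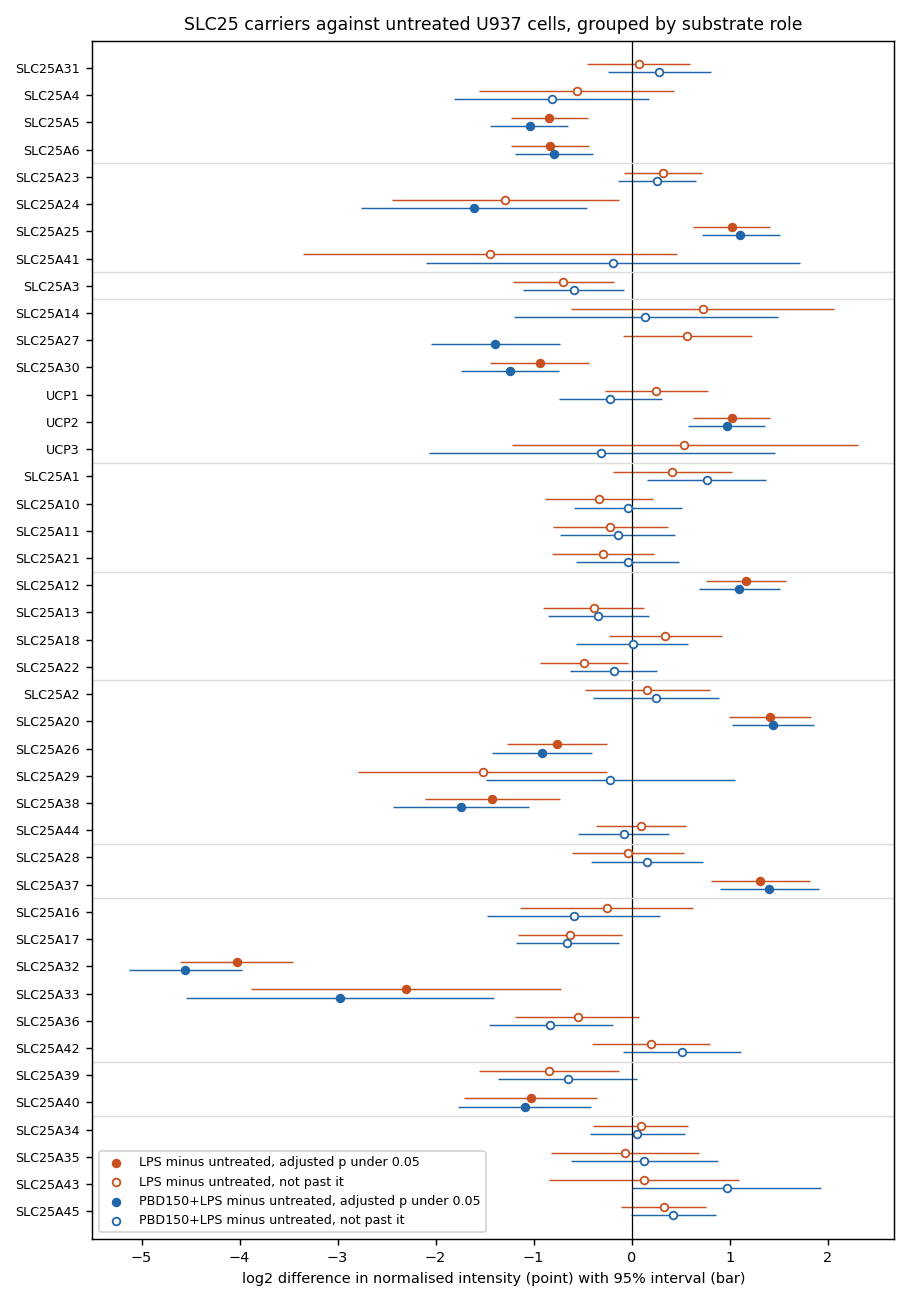
Log2 differences in normalised intensity of the 43 carriers against untreated cells, with points for the estimate and bars for the 95% interval, in the LPS group and the PBD150 plus LPS group, ordered by substrate role. SLC25A32 is the lowest point at -4.03 with LPS and -4.56 with PBD150 plus LPS, and SLC25A20 the highest called point at 1.41 and 1.44.

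Promoter sequence was examined for what the carriers share beyond their symbols. RefSeq promoters (GRCh38.p14, 250 bases before to 50 after the start) were matched for 36 of the 43, and 11 motifs, chosen after the carriers' values were seen, were searched on both strands. The E-box CACGTG was in 8.77% of 27305 genes, in 3 of 6 matched carriers that fell with LPS, in 0 of 4 that rose and in 4 of 26 that did not pass. The GC box GGGGCGGGG was in 18.5% of genes and in 5, 2 and 4 of these. No promoter was matched for SLC25A32 and SLC25A30, which fell, or for SLC25A37, which rose. Whether these carriers hold any of the motifs is therefore unknown. The E-box was picked for display from the calls on these same data, as the only motif found in fallen and not in risen carriers. With 4 matched risen carriers and 8.77% of genes holding it, its absence there says little. The stretches around the E-boxes of the fallen carriers are shown 5′ to 3′ on the plus strand, with each E-box in capitals.
SLC25A33, chr1:9539409-9539464: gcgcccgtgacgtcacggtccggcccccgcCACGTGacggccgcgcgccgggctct
SLC25A38, chr3:39383296-39383361: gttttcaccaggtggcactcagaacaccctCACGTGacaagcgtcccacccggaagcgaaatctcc
SLC25A26, chr3:66220921-66221000: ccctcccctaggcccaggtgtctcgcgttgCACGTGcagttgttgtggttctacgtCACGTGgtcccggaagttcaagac

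The E-box begins 26 bases before the start in SLC25A33 and 44 before in SLC25A38, and SLC25A26 holds a pair at 50 and 24, at 1 of its 3 listed starts. The ETS-type motif CCGGAAG was in 12.2% of genes and in 2, 2 and 5 of the fallen, risen and other carriers. Its core CGGAAG, which it contains, was in 22.6% and in 2, 3 and 9, and it lies in the SLC25A38 and SLC25A26 stretches. CCAAT was in 39.7% and in 2, 2 and 18, and ATTGGC, which overlaps it on the other strand, in 17.6% and in 1, 1 and 13. The NRF1-type motif was in 6.98% and in 0, 0 and 3. The NF-kB-type motif (2.33% of genes), the AP-1-type TGANTCA (9.37%) and the IRF-type motif (4.38%) were each in 0, 0 and 1, and the STAT-type GGAANTTCC (1.16%) in none. A match describes the letters of the window only, and no binding was measured.

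Adenine nucleotide carriers exchange ATP made in the matrix for cytosolic ADP, and 2 of the 4 fell with LPS, SLC25A5 and SLC25A6. SLC25A5 read 13.46, 13.30 and 13.38 in untreated replicates, 12.76, 12.46 and 12.40 with LPS, and 12.28, 12.34 and 12.38 with PBD150 plus LPS (log2 intensity). All untreated replicates were above all of the others. The difference was -0.84 ± 0.17 (SE, limma adjusted p = 0.00882) with LPS and -1.04 ± 0.17 (0.00264) with PBD150 plus LPS. SLC25A6 read 15.41, 15.29 and 15.38 untreated, 14.36, 14.66 and 14.60 with LPS, and 14.75, 14.50 and 14.47 with PBD150 plus LPS. Again no treated replicate reached the lowest untreated one. Its differences were -0.83 ± 0.18 (0.0103) and -0.79 ± 0.18 (0.0111). On the values as deposited the LPS difference was -0.45 (adjusted p = 0.189) for SLC25A5 and -0.33 (0.253) for SLC25A6, and neither passed. SLC25A6 did not pass there with PBD150 plus LPS either (-0.52, 0.0919). SLC25A4, the heart and muscle form, exceeded noise on 1 of 9 untreated arrays and on none of the treated ones, so no fold is given. SLC25A31, the testis form, differed by 0.08 with LPS (adjusted p = 0.847), an estimate whose sign turned with median centring. These genes are close paralogs, and cross-hybridisation between their probes was not tested because the probe sequences were not used here.

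Phosphate for ATP synthesis enters through SLC25A3, which also carries copper. SLC25A3 read 14.51, 14.46 and 14.44 untreated, 13.33, 14.15 and 13.84 with LPS, and 13.79, 13.98 and 13.85 with PBD150 plus LPS. Every treated replicate lay below the untreated ones, yet neither difference passed (-0.70, limma adjusted p = 0.0586, and -0.59, 0.0882). Its LPS difference passed on leaving out LPS replicate 2 (-0.88, 0.0336), and the other passed on leaving out LPS replicate 1 (-0.59, 0.0256). On the values as deposited the differences were smaller, -0.21 (0.555) and -0.29 (0.399).

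The calcium-regulated ATP-Mg/phosphate carriers set the total adenine nucleotide pool of the matrix, and 1 of the 4 rose with LPS while none fell. SLC25A25 read 10.45, 10.55 and 10.54 untreated, 11.68, 11.31 and 11.61 with LPS, and 11.68, 11.63 and 11.56 with PBD150 plus LPS. The lowest treated replicate was above the highest untreated one. The rise was 2.03-fold with LPS (log2 1.02 ± 0.17, limma adjusted p = 0.00339) and 2.16-fold with PBD150 plus LPS (1.11 ± 0.17, 0.00192). SLC25A24, a carrier of the same kind, read 7.80, 7.86 and 7.63 untreated, 7.23, 5.97 and 6.23 with LPS, and 5.01, 6.57 and 6.89 with PBD150 plus LPS. Replicates were spread widely in both treated groups. Its difference was -1.29 ± 0.50 (0.108) with LPS and -1.61 ± 0.50 (0.0469) with PBD150 plus LPS, so it passed only in the latter. That call was lost when any of 7 replicates was left out, PBD150 plus LPS replicate 1 among them (-1.03, 0.102), while the LPS difference passed without that replicate (-1.29, 0.0317).

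Uncoupling proteins let protons or small anions cross the membrane, and UCP2 is the form best known in macrophages, where its loss in mice raises reactive oxygen species. UCP2 read 10.34, 10.42 and 10.60 untreated, 11.49, 11.34 and 11.59 with LPS, and 11.52, 11.37 and 11.36 with PBD150 plus LPS. The treated groups lay above the untreated group and overlapped each other. UCP2 rose 2.03-fold with LPS (log2 1.02 ± 0.17, limma adjusted p = 0.00316) and 1.96-fold with PBD150 plus LPS (0.97 ± 0.17, 0.00364). Its relative SLC25A30, the kidney mitochondrial carrier, fell. SLC25A30 read 8.83, 8.83 and 8.90 untreated, 8.10, 7.91 and 7.74 with LPS, and 7.46, 7.35 and 8.03 with PBD150 plus LPS. Untreated replicates were again above the rest, and the falls were 1.91-fold (0.0166) and 2.36-fold (0.00384). Without any one untreated replicate, or without LPS replicate 2 or 3, the LPS call was lost (0.0504 to 0.0605). UCP1, the heat-producing form of brown fat, differed by 0.25 (0.487) with LPS, and SLC25A14 by 0.73 (0.431). UCP3, the muscle form, exceeded noise on 2, 5 and 1 of 9 arrays in the untreated, LPS and PBD150 plus LPS groups.

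None of the 4 di- and tricarboxylate carriers passed in either comparison with untreated cells. SLC25A1 exports citrate for fatty acid synthesis and histone acetylation. It read 8.92, 8.88 and 8.87 untreated, 8.73, 9.51 and 9.67 with LPS, and 9.86, 9.43 and 9.69 with PBD150 plus LPS. LPS replicate 1 was below the untreated values and the other treated replicates were above them. The differences were 0.41 (limma adjusted p = 0.316) and 0.77 (0.0646). Without LPS replicate 1 they were 0.70 (0.0321) and 0.77 (0.0121), and both passed. SLC25A10, which exchanges malate or succinate for phosphate, differed by -0.33 (0.379) with LPS. SLC25A11, the oxoglutarate/malate carrier of the malate-aspartate shuttle, differed by -0.22 (0.597), which turned to 0.08 on the values as deposited.

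The malate-aspartate shuttle also needs an aspartate/glutamate exchanger, of which there are a pair. SLC25A12, also called aralar, read 10.82, 10.85 and 10.90 untreated, 11.93, 12.01 and 12.14 with LPS, and 12.21, 11.85 and 11.82 with PBD150 plus LPS. The treated groups overlapped each other and stood clear of the untreated one. It rose 2.25-fold with LPS (log2 1.17 ± 0.18, limma adjusted p = 0.00205) and 2.15-fold with PBD150 plus LPS (1.10 ± 0.18, 0.00242). SLC25A13, citrin, the liver-enriched exchanger, read 11.49, 11.37 and 11.47 untreated, 10.98, 10.95 and 11.25 with LPS, and 11.45, 11.17 and 10.69 with PBD150 plus LPS. It differed by -0.38 (0.275) with LPS and did not pass. The glutamate carrier SLC25A22 differed by -0.49 (0.114).

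SLC25A20, the carnitine/acylcarnitine carrier through which fatty acids enter for oxidation, had the largest rise of the carriers. SLC25A20 read 8.49, 8.41 and 8.20 untreated, 9.56, 9.98 and 9.79 with LPS, and 9.83, 9.88 and 9.72 with PBD150 plus LPS. The treated replicates were all more than a log2 unit above the highest untreated one. The rise was 2.66-fold with LPS (log2 1.41 ± 0.18, limma adjusted p = 0.000951) and 2.72-fold with PBD150 plus LPS (1.44 ± 0.18, 0.000713). With LPS 10.6% of all probes rose and 11.8% fell. Of the 11 measured genes for beta-oxidation and the carnitine shuttle 2 rose and 2 fell with LPS, with a median of -0.10. Without untreated replicate 2 or 3 the counts were 1 and 1, and 1 fell without LPS replicate 2 or 3 or PBD150 plus LPS replicate 1. The enzyme of very long chain acyl-CoA, ACADVL, rose (0.89, 0.00651), as did the carnitine acetyltransferase CRAT (0.88, 0.017), while HADH fell (-1.04, 0.0089). CRAT did not pass without untreated replicate 2 or 3, and on the values as deposited HADH did not pass and the list's median was 0.36.

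SLC25A38 brings glycine into the matrix for the first step of haem synthesis, and its promoter is one of those with an E-box. It read 10.32, 10.61 and 10.73 untreated, 9.50, 9.24 and 8.66 with LPS, and 8.68, 8.45 and 9.32 with PBD150 plus LPS. No treated replicate overlapped the untreated ones. It fell 2.67-fold with LPS (log2 -1.42 ± 0.30, limma adjusted p = 0.0104) and 3.34-fold with PBD150 plus LPS (-1.74 ± 0.30, 0.00342). SLC25A26, with the E-box pair, carries S-adenosylmethionine, the methyl donor. It read 5.28, 5.24 and 5.09 untreated, 4.38, 4.20 and 4.75 with LPS, and 4.25, 4.03 and 4.61 with PBD150 plus LPS. This dim probe exceeded noise on 9, 8 and 6 of 9 arrays, and it fell 1.69-fold (0.0408) and 1.87-fold (0.0176). Its LPS call was lost without any one untreated replicate, without LPS replicate 1 or 2, or without PBD150 plus LPS replicate 1 (0.0583 to 0.128). The other call was lost without untreated replicate 1 or 2, or without PBD150 plus LPS replicate 1 or 2 (0.0566 to 0.0638).

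Mitoferrins deliver iron to the matrix for haem and iron-sulphur clusters, and the paralogs differed in their calls. SLC25A37, mitoferrin 1, read 9.83, 9.63 and 9.56 untreated, 11.04, 11.26 and 10.67 with LPS, and 10.90, 11.35 and 10.98 with PBD150 plus LPS. Treated and untreated replicates did not overlap. It rose 2.49-fold (log2 1.31 ± 0.22, limma adjusted p = 0.00328) and 2.65-fold (1.40 ± 0.22, 0.00205). SLC25A28, mitoferrin 2, read 10.77, 10.64 and 10.55 untreated, 10.20, 11.13 and 10.51 with LPS, and 10.91, 10.88 and 10.66 with PBD150 plus LPS, with all groups overlapping. Its LPS difference of -0.04 (0.926) changed sign under several settings, and the difference between the paralogs' responses was not tested. With LPS 10.6% of all probes rose and 11.8% fell. Of the 11 measured genes of haem and iron-sulphur assembly 1 rose and 5 fell with LPS, with a median of -0.66. Ferrochelatase FECH, the last enzyme of haem synthesis, fell (-1.28, 0.00583), as did the transporter ABCB10 (-1.22, 0.00132). The probe of the cluster assembly factor ISCA1, counted among the 5, exceeded noise on 4 of 9 untreated arrays and on no treated array, so no size is given for it. Without any one untreated replicate, or without LPS replicate 2 or 3, 3 of the list fell, as also on the values as deposited. ALAS1, which uses the glycine for the first step, rose (1.02, 0.0142), a call lost without untreated replicate 3 or LPS replicate 2.

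SLC25A32 moves folate or FAD into the matrix and had the largest fall of the carriers in both comparisons with untreated cells. SLC25A32 read 8.70, 8.63 and 8.49 untreated, 4.03, 4.95 and 4.75 with LPS, and 3.89, 4.09 and 4.17 with PBD150 plus LPS. The untreated values stood over 3 log2 units above every treated one. It fell 16.4-fold with LPS (log2 -4.03 ± 0.25, limma adjusted p = 3.15e-05) and 23.5-fold with PBD150 plus LPS (-4.56 ± 0.25, 1.61e-05). The probe exceeded noise on 9 of 9 untreated arrays, 8 of 9 with LPS and 5 of 9 with PBD150 plus LPS, so the sizes depend on values near the noise limit. With LPS 10.6% of all probes rose and 11.8% fell. Of 8 measured genes of mitochondrial folate and one-carbon metabolism 3 fell with LPS and none rose, with a median of -0.58. GCSH, the lipoyl carrier of glycine cleavage, fell (-2.92, 0.00069), as did MTHFD1L, which makes formate (-2.36, 0.000896), and SHMT2, which splits serine (-0.82, 0.0165). Without LPS replicate 3, 1 of the list rose. On the values as deposited 2 of these genes were higher and 2 lower, and SHMT2 did not pass there (-0.33, 0.26) or without any one untreated replicate.

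Pyrimidine nucleotides for mitochondrial DNA and RNA enter through SLC25A33 and SLC25A36, which both have a promoter E-box. SLC25A33 read 8.43, 8.33 and 8.05 untreated, 7.22, 5.78 and 4.91 with LPS, and 4.51, 4.67 and 6.70 with PBD150 plus LPS. Treated replicates spread over more than 2 log2 units and none reached the untreated values. It fell 4.92-fold (log2 -2.30 ± 0.69, limma adjusted p = 0.0448) and 7.86-fold (-2.98 ± 0.69, 0.0137). The LPS call was lost without any one untreated replicate, without LPS replicate 2 or 3, or without PBD150 plus LPS replicate 2 (0.0554 to 0.14). Without PBD150 plus LPS replicate 1 or 2 the other call was lost too (0.0535 and 0.0528). SLC25A36 differed by -0.55 (0.2) with LPS. Cofactor carriers for CoA did not pass either, with -0.63 (0.0874) for the peroxisomal SLC25A17 and 0.20 (0.637) for SLC25A42. Without PBD150 plus LPS replicate 3 SLC25A17 passed (-0.63, 0.0323).

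SLC25A39 and SLC25A40 bring glutathione into the matrix. SLC25A40 read 8.52, 8.38 and 8.17 untreated, 7.70, 7.37 and 6.90 with LPS, and 6.72, 7.57 and 7.52 with PBD150 plus LPS, the treated replicates all lower. It fell 2.05-fold (log2 -1.03 ± 0.30, limma adjusted p = 0.0382) and 2.13-fold (-1.09 ± 0.30, 0.0276). A second, dimmer probe of this gene, above noise on 4, 3 and 1 of 9 arrays, differed by -0.35 (0.739) and -0.64 (0.501). Leaving out any one untreated replicate ended both calls, as did LPS replicate 2 or 3 for the first (0.071 to 0.121) and PBD150 plus LPS replicate 1 for the second (0.0539 to 0.0881). SLC25A39 read 9.29, 9.43 and 9.35 untreated, 7.81, 9.11 and 8.62 with LPS, and 8.66, 8.55 and 8.90 with PBD150 plus LPS. Its LPS difference of -0.84 (0.0891) did not pass, and it passed without LPS replicate 2 (-1.14, 0.0295).

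**Figure D2:**
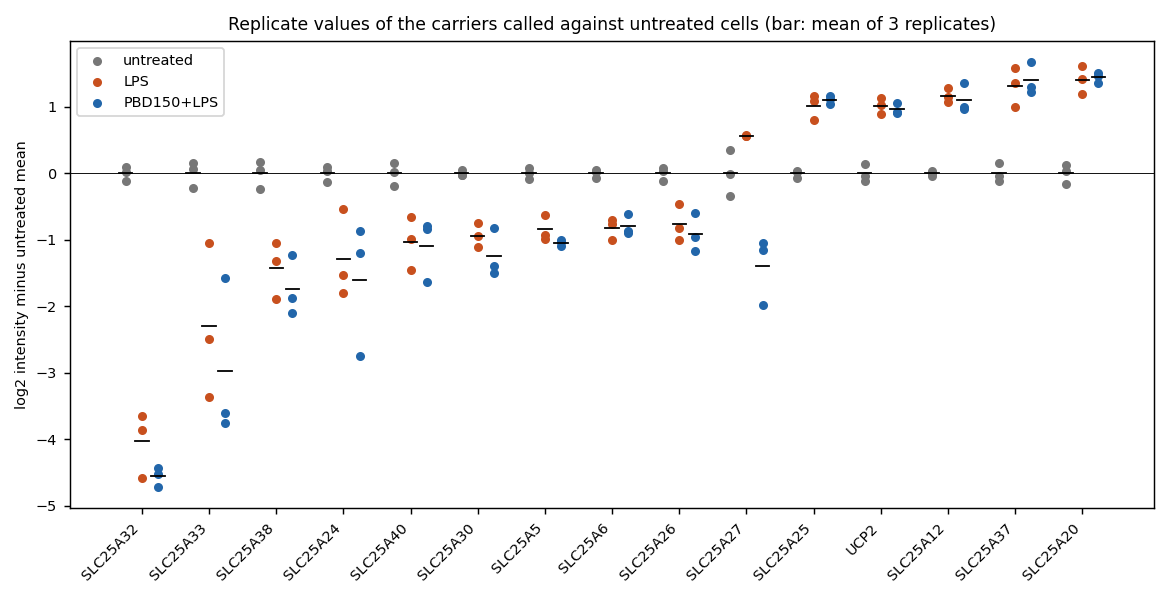
Log2 intensity of each biological replicate minus the untreated mean, for the carriers called against untreated cells, with a bar at the mean of the 3 replicates. The treated replicates of SLC25A20, SLC25A37, SLC25A12, SLC25A25 and UCP2 lie above all untreated replicates, and the lowest mean in each treated group is that of SLC25A32.

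The remaining members, which include SLC25A2, SLC25A16, SLC25A18, SLC25A21, SLC25A23, SLC25A34, SLC25A35, SLC25A44 and SLC25A45, did not pass in either comparison with untreated cells. SLC25A41 and SLC25A43 were near the noise limit, with 2, 1 and 2 arrays above it for the first and 0, 2 and 1 for the second. In all, 31 of the 43 exceeded noise on all 27 arrays. Outside the symbol rule, SLC25A47 had group means of 5.72, 5.99 and 6.14 (untreated, LPS, PBD150 plus LPS), and SLC25A53 was above noise on no array.

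The path that imports the carriers was counted next, for LPS against untreated. Over all probes 10.6% rose and 11.8% fell. Of 11 measured receptors, chaperones and TIM22 subunits 7 fell and none rose, with a median of -1.68. The TIMM29 probe, counted in the 11, exceeded noise on no array. The intermembrane chaperones TIMM8A (-1.99, limma adjusted p = 0.000102) and TIMM13 (-1.52, 0.0014) fell. So did TIMM22, the inserting channel (-1.68, 0.00124), and the receptor TOMM22 (-1.83, 0.0041). With PBD150 plus LPS against untreated 9 of these 11 fell, where 13.5% of all probes were lower. The lists were chosen with earlier results of these data known, so these counts are not independent evidence of a direction.

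Enzymes that make or use the carriers' substrates were counted in the same way for LPS against untreated. The share over all probes was again 10.6% higher and 11.8% lower. In the citric acid cycle and pyruvate dehydrogenase 1 of 17 rose and 7 fell, with a median of -0.58. Without untreated replicate 1 or 3, or LPS replicate 2 or 3, 4 fell, and on the values as deposited 5 fell with a median of -0.17. PC, which makes oxaloacetate from pyruvate, was the gene that rose (1.71, limma adjusted p = 0.000282), while citrate synthase CS (-1.35, 0.000789), IDH3A (-1.16, 0.00303) and SDHB (-1.34, 0.00313) fell. Among 5 genes of cytosolic citrate use 3 fell, including ACLY, which splits exported citrate to acetyl-CoA (-1.80, 0.00267). MDH1 (-0.85, 0.0216) and ME1 (-0.85, 0.0259) were the others, and neither passed on the values as deposited. MDH1 also did not pass with the replicate block, or without untreated replicate 2 or 3 or LPS replicate 3. Nor did ME1 pass without untreated replicate 1 or 3 or LPS replicate 2 or 3. Of 10 biogenesis regulators 6 fell and 1 rose: TFB2M (-2.87, 9.54e-05), TFAM (-1.27, 0.00191, and -2.95 as the mean over its probes) and PPRC1 (-2.51, 0.00339) fell, and TFB1M rose (1.05, 0.00349). Of 3 measured genes of the pyruvate carrier and porins MPC1 fell (-0.84, 0.0166), a call lost without untreated replicate 2 or 3 or LPS replicate 2 or 3. In the list of calcium uniporter genes plus LETM1, 2 of 7 fell, LETM1 itself (-1.37, 0.00213) and MICU2 (-2.11, 0.024). The MICU2 call was lost with the replicate block, and without any one untreated replicate or LPS replicate 2 or 3.

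**Figure D3:**
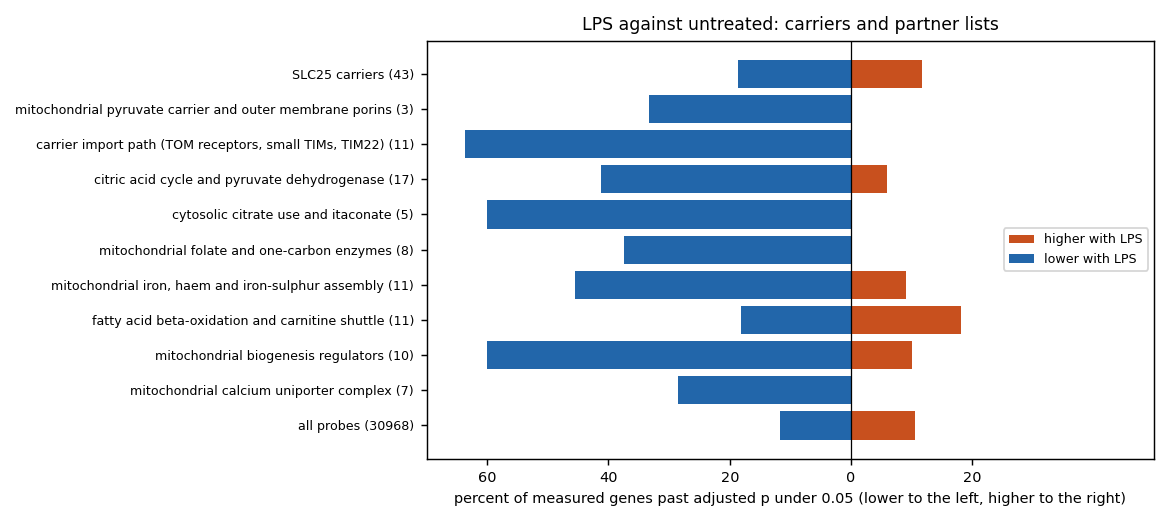
Percent of measured genes past an adjusted p under 0.05 for LPS against untreated, lower to the left and higher to the right of 0, for the SLC25 carriers, each partner list and all probes, with the number measured in brackets. The import path shows the longest bar to the left, 7 of 11 genes.

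PBD150 plus LPS was compared with untreated cells using the same untreated arrays as the LPS comparison, so the results above are set side by side only. In it 34.9% of the carriers passed, against 26% of all probes (12.6% higher and 13.5% lower). With dim probes left out, 6 of 38 carriers were higher and 13 lower, while 45.5% of 20404 probes passed in either direction. The carriers' median was -0.18 against 0.11 over all probes, and the range was -4.56 to 1.44. On the values as deposited 6 carriers were higher and 6 lower, with a median of 0.05 against 0.31. Replicates did not overlap for 9 higher and 14 lower carriers, 53.5% against 45.3% of all probes (24% higher and 21.3% lower).

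What PBD150 changed on top of LPS is asked by the comparison of the LPS groups. No carrier passed limma's test, nor did any probe on the array (0% of 30968), and the smallest adjusted p of a carrier was 0.414. At an unadjusted p under 0.05 there were 2 carriers, 4.65% of them, against 5.11% of all probes. Replicates did not overlap for 3 carriers, SLC25A29 higher and SLC25A5 and SLC25A27 lower, which is 6.98% against 7.98% of probes (3.69% higher and 4.29% lower). A fit to the 27 single arrays with a random block called 1 probe higher and 13 lower, none of them a carrier, and no other setting called any. Carrier differences ran from -1.96 to 1.30 with a median of -0.03.

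The 95% interval of the difference lay within a 2-fold change either way for 31 carriers, 72.1% of them and 50.2% of all probes. The share over all probes was not computed with dim probes left out. The intervals give, one carrier at a time, the sizes of change that the fit allows. The fit shares 1 spread per probe with the untreated group. In untreated cells the median SD was 0.206, against 0.365 with LPS and 0.373 with PBD150 plus LPS, so the intervals may be too narrow. For the carriers that rose against untreated cells the intervals were -0.30 to 0.49 for SLC25A25, -0.44 to 0.33 for UCP2, -0.48 to 0.34 for SLC25A12, -0.39 to 0.46 for SLC25A20 and -0.41 to 0.59 for SLC25A37. Intervals were wider for several that fell, at -1.10 to 0.05 for SLC25A32 and -2.25 to 0.90 for SLC25A33.

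SLC25A27, or UCP4, the uncoupling protein best known from brain, had the lowest unadjusted p of the carriers between the LPS groups. SLC25A27 read 5.97, 5.62 and 5.28 untreated, 6.20, 6.19 and 6.18 with LPS, and 4.58, 3.64 and 4.47 with PBD150 plus LPS. The PBD150 plus LPS replicates were below all others. The difference from LPS was -1.96 ± 0.29 with a limma adjusted p of 0.414, and its adjusted p ran from 0.11, with a pseudocount of 16 and a difference of -1.11, to 0.819 over the alternative settings. Against untreated cells it was -1.39 ± 0.29 (adjusted p = 0.00808), which passed, and LPS alone gave 0.57 ± 0.29 (0.202). LPS alone passed on the values as deposited (0.98, 0.0371).

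The 3 arrays of a replicate spread far more for SLC25A27 than the replicate means. With LPS the arrays read 6.50, 5.49 and 6.62 in replicate 1, 5.96, 6.33 and 6.29 in replicate 2, and 5.02, 6.90 and 6.63 in replicate 3. With PBD150 plus LPS they read 6.05, 5.49 and 2.22, then 6.77, 0.00 and 4.15, then 4.65, 4.35 and 4.39. Single arrays at 2.22 and 0.00 therefore weigh on the means of the first and second replicates, and 3 of the other 4 arrays of those replicates lie within the LPS range. All 3 arrays of the third replicate lie below the LPS range of 5.02 to 6.90. Untreated cells had low single arrays too, 4.15 in replicate 2 and 3.59 in replicate 3. The probe exceeded noise on 8, 9 and 6 of 9 arrays in the untreated, LPS and PBD150 plus LPS groups. With the 27 arrays fitted singly the adjusted p was 0.712 against LPS and 0.246 against untreated cells, so the latter call was lost.

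**Figure D4:**
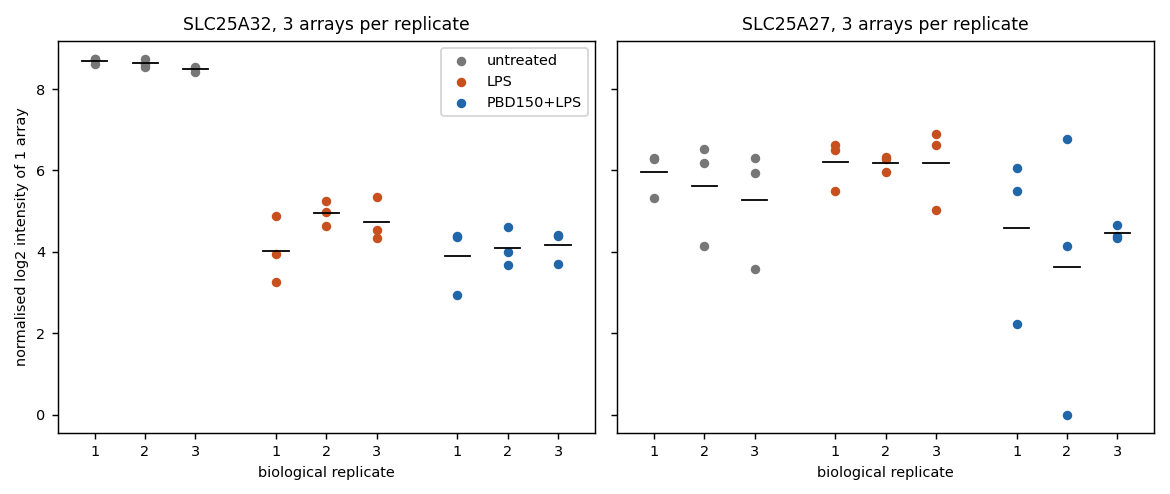
Normalised log2 intensity on each of the 27 arrays for SLC25A32 on the left and SLC25A27 on the right, by biological replicate and treatment, with a line at the mean of 3 arrays. For SLC25A32 all untreated arrays lie above all treated ones. For SLC25A27 the PBD150 plus LPS arrays run from 0.00 to 6.77 and the LPS arrays from 5.02 to 6.90.

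SLC25A29, a carrier of basic amino acids, had the other unadjusted p under 0.05. It read 5.18, 5.12 and 5.45 untreated, 2.19, 4.48 and 4.50 with LPS, and 4.88, 4.96 and 5.26 with PBD150 plus LPS. LPS replicate 1 stood far below the rest. The difference between the LPS groups was 1.30 ± 0.56 (95% interval 0.03 to 2.58, limma adjusted p = 0.906), and LPS against untreated gave -1.52 (0.0882). Without LPS replicate 1 the former was 0.54 (0.889), and the latter was -0.75 (0.0303) and passed. SLC25A5 differed by -0.21 ± 0.17 (0.906) between the LPS groups.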

How the data were processed

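Total RNA from U937 cells was amplified, labelled with Cy5 and read on one-colour Phalanx Human OneArray slides, per the labels' protocols. The deposited table holds linear spot intensity, 1 value per probe and array; which scanner was used, and how background and scale were treated, no label or header used here says. Some values lie below 0. Arrays' log2 medians ranged over more than 0.5, so intensities were floored at 1 (4.35% to 7.59% of an array), log2 transformed and quantile normalised over 27 arrays. Technical arrays were averaged into 1 value per biological replicate, 3 arrays each. limma 3.58.1 in R 4.3.3 fitted group means over 9 replicates, with two-sided moderated tests adjusted by Benjamini-Hochberg over 30968 probes. The fit was also run on simulated data with 1 spread per probe in all groups. That simulation cannot show how the fit behaves where the groups' spreads differ, as they do here. A fold is 2 to the power of the log2 difference, and for dim probes its size depends on the floor. Replicates of a probe had a median SD of 0.206 in untreated cells, 0.365 after LPS and 0.373 after PBD150 plus LPS, and the groups share 1 spread per probe. The number of arrays limits the precision.

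Probes were named from the platform annotation (17397 probes with 1 symbol, 0 with several, 13571 without), with 2645 updated through RefSeq genes of GRCh38.p14 and 82 unmatched. The members, role groups, partner lists and markers were chosen with earlier results of these data known. Every member may be named, with replicate values for those that passed or that a result turns on, and up to 4 genes of a list by smallest p. Replicates are biological per the labels, and no source says how cultures were kept apart. No column was left unused (0).

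Deviations of same-numbered replicates of different groups had correlations of -0.219 to 0.036, which cannot exclude a shared culture day. The numbers are not known to pair samples, so the main fit used no block. Alternatives were the values as deposited, median centring, a pseudocount of 16, dim probes left out, the mean over a gene's probes, trended robust variance, only the groups compared, a replicate block, single arrays with a random block, array weights, and each replicate left out.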

Additional observations from a re-analysis of the deposited data

How the results depend on the processing

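SLC25A12, SLC25A20, SLC25A25, SLC25A37, UCP2 and SLC25A32 passed in both comparisons with untreated cells under all 19 alternatives, and no called carrier changed direction under any. In LPS against untreated, 8 carriers lower became 1 on the values as deposited, 13 with a pseudocount of 16, 5 with the replicate block, 13 with array weights and 4 to 9 with a replicate left out, while those higher stayed at 5 to 6. The lowest, 4, came without each untreated replicate, and 5 without LPS replicate 3. All probes (3292 higher, 3664 lower) gave 5935 and 2205 as deposited, 5458 and 5552 with array weights, and 2256 to 3724 and 2415 to 4160 with a replicate left out. In PBD150 plus LPS against untreated, 5 carriers higher became 8 with single arrays in a random block, and 10 lower became 6 as deposited and 6 to 13 with a replicate left out (6 without PBD150 plus LPS replicate 1). All probes (3887 higher, 4174 lower) gave 6373 higher with array weights, and 2597 to 5051 and 2964 to 4805 with a replicate left out. Between the LPS groups, single arrays in a random block called 1 probe higher and 13 lower, where the count was 0 otherwise. The replicate block gave 5 carriers higher and 5 lower with LPS, and 5 and 8 with PBD150 plus LPS; the numbers are not known to pair samples (correlation of same-numbered deviations -0.219 to 0.036).

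Differences that did not pass turned sign in some settings. SLC25A28 with LPS was 0.26 as deposited, 0.28 over its probes, 0.22 with array weights, 0.01 without untreated replicate 1, 0.01 without LPS replicate 3, and -0.30 to 0.16 over all replicates left out in turn. The second SLC25A28 probe, which enters the 0.28, exceeded noise on no array. SLC25A31 was -0.10 median centred, -0.03 with array weights and -0.04 without LPS replicate 1 (-0.04 to 0.21 over replicates left out), and SLC25A11 was 0.08 as deposited. UCP2 between the LPS groups was 0.00 with array weights and without LPS replicate 3 (-0.12 to 0.00 over replicates left out). The cause was not tested. Dim probes limit SLC25A4, SLC25A41, SLC25A43 and UCP3, and the median over all probes shifted from 0.08 to 0.41 as deposited and -0.07 median centred.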
